A study of Homo sapiens with 12 samples.

Results

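CWR22Rv1 cells that had met a CRISPR/Cas9 guide to HOXB13 were compared with their Control cells, to find which transcripts differ between the HOXB13ko line and a line that met no guide. CWR22Rv1 is an established human prostate carcinoma line from a CWR22 xenograft that came back after castration of its host. The members of the comparison were all genes listed in the files after exact repeats were dropped, 13951 of 13951, and the comparison used 6 of the 12 RNA-seq libraries, 3 of Control and 3 labelled HOXB13ko. Control cells expressed Cas9 and received no gRNA. HOXB13ko cells expressed the same Cas9 and received a synthetic crRNA against the N-terminus of HOXB13. The study then derived clonal lines, reports that western blot verified the knockout in each, and mixed them again into 1 pool. The other 6 libraries were 3 of LV-MEIS1, which carries lentiviral MEIS1, and 3 of HOXB13ko-LV-MEIS1, which is the HOXB13ko pool with the same lentivirus. All 4 lines grew in RPMI with serum and puromycin, and RNA was taken 48 h after seeding. The labels do not say whether LV-MEIS1 cells carry Cas9. Each genotype was a single line or pool, and Control did not pass through cloning, so loss of HOXB13, contact with the guide and selection of clones cannot be told apart, and p-values measure the spread between libraries of a line, which may be technical.

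HOXB13 is a homeodomain transcription factor of the posterior HOX group that is expressed in the prostate epithelium from development into adult life. MEIS proteins, which are homeodomain factors of the TALE class, are among its partners on DNA. In prostate cancer, a change from a luminal to a neuroendocrine pattern of expression is known to follow treatment that lowers androgen signals in some tumors.

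Depth was estimated from the steps between low values at 17200000 to 28700000 reads in the 6 libraries, and 3 reads were worth 0.105 to 0.174 CPM, the deposited unit, counts scaled to a common library size. The 10 most abundant genes held 6.33 to 7.83% of the listed CPM, and 0 to 7 genes per library were listed at 0. Across genes, log2 values correlated with r between 0.9904 and 0.995 within a group (6 pairs of libraries) and between 0.975 and 0.985 across the groups (9 pairs), and no library stood apart from its group. A gene was called when limma's treat test placed its change beyond 1.5-fold at a Benjamini-Hochberg adjusted p under 0.05 over all 13951 genes. Genes said below to have risen or fallen are those called higher or lower. Fold changes are differences of log2(CPM + 0.5), which understate the change of low genes, and "eBayes" is limma's test against no change.

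The crRNA sequence is shown because the whole comparison rests on where it cuts. It matched GRCh38 at chr17:48728454-48728473 on the forward strand, with its NGG motif ending at 48728476, inside coding exon 1 of HOXB13 (48727993 to 48728750), which is transcribed from the reverse strand. The protospacer is given with its PAM in capitals, and the surrounding 100 bases, chr17:48728414-48728513 on the forward strand, with protospacer and PAM in capitals.
HOXB13 protospacer and PAM: ttgacagcaggcatcagcgtAGG
HOXB13 exon 1 around the site: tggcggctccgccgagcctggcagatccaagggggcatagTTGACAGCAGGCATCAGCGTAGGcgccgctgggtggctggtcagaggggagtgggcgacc

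Cas9 cuts 3 bases from the PAM, here between 48728470 and 48728471. That position follows 123 coding bases, 14.4% of the 852 before the stop codon, or 41 of 284 codons. Most of the reading frame, with the C-terminal homeodomain, therefore lies behind the cut. A search of chromosomes 1 to 22, X and Y for sites with an NGG motif found 1 exact match, none with 1 or 2 mismatches and 2 with 3 mismatches. Those were at chr7:25940513-25940532, with the substitutions G10T, T14G and C18A counted from the 5′ end of the guide, and at chrX:138331683-138331702, with G11C, C12A and G19C, and both lay between annotated genes.

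HOXB13 mRNA (ENSG00000159184, chromosome 17, 48724763 to 48728750, reverse strand) was 185, 215 and 187 CPM in the Control libraries and 347, 326 and 307 CPM in the libraries labelled HOXB13ko. The groups did not overlap, and the mRNA was higher where the label says knockout. Its log2 fold change was 0.74 ± 0.07 (SE, n = 3 per group), which did not pass treat (adjusted p = 0.808) and passed eBayes (adjusted p = 2.1e-06). With a trend across GC content removed, described below, the value was 0.88 and passed treat (adjusted p = 9.35e-04). Gene-level CPM counts transcripts with or without small edits alike, so it cannot show whether a reading frame was shifted. The study reports the knockout from western blots, which measure protein, and protein was not measured in these libraries. In the MEIS1 lines the order was the same, 151 ± 0.7697 CPM (SD, n = 3) in LV-MEIS1 and 354 ± 25.1 CPM in HOXB13ko-LV-MEIS1.

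No listed neighbour of the cut was called. Over all genes 1.41% were called, so no call is the usual outcome for sets as small as those in this paragraph. Of 17 other listed genes within 500 kb of HOXB13, log2 fold changes ran from -0.48 for HOXB9 to 0.94 for TTLL6, a tubulin polyglutamylase gene, with a median of 0.087. By eBayes, 4 were higher, among them HOXB5 (0.60) and HOXB6 (0.40), and 5 were lower, among them HOXB9 and IGF2BP1 (-0.47), which encodes an RNA-binding protein of fetal tissues. The same test placed 16.5% of all genes higher and 16.4% lower. Across the genome, none of 27 listed HOX genes was called. By eBayes 6 of them were higher, HOXB13 among them, and 3 were lower. The median was -0.012 and turned to 0.10 when the GC trend was removed, where HOXB13 was the 1 member called. Of 11 listed TALE genes out of 16, which encode the partners of HOX proteins, none was called, and the median was -0.13. MEIS1 itself was 4.24, 4.45 and 4.05 CPM in Control and 3.65, 3.59 and 3.42 CPM in the libraries labelled HOXB13ko, lower in each but by less than 1.5-fold (-0.23, eBayes adjusted p = 0.0314).

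Markers of prostate luminal cells were high in both groups. All 11 defining luminal markers were listed, among them the antigens KLK3 and FOLH1, and none was called. The pioneer factor FOXA1 was 386 ± 9.22 CPM in Control and 387 ± 12.7 CPM in HOXB13ko (SD, n = 3). No basal marker of 4 (KRT5, KRT14, KRT15, TP63) and no endothelial marker of 4 was listed. The files listed 2 of 6 fibroblast markers and 1 of 5 neuroendocrine markers (SYP). In a wider list of 15 luminal genes the median log2 fold change was 0.0051, against -0.0017 over all genes, and the 1 called member was KRT19, a keratin of simple epithelia, at 74.9, 94.8 and 90.1 CPM in Control and 41.1, 38.9 and 37.1 CPM in HOXB13ko (-1.13 ± 0.09, treat adjusted p = 0.00105). The other 3 of 4 listed keratins were not called. KLK3, which encodes prostate-specific antigen, was 178, 173 and 195 CPM in Control and 139, 135 and 138 CPM in HOXB13ko, a log2 difference of -0.40 that passed eBayes (8.5e-04) and not treat.

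In all, 197 of 13951 genes were called (1.41%), 91 higher (0.652%) and 106 lower (0.76%). Without adjustment, 378 genes had a treat p under 0.05. Against no change, eBayes called 2301 genes higher (16.5%) and 2289 lower (16.4%), while 93.7% of all genes moved by less than 1.5-fold, so small shifts were common and large ones few. The 197 called genes had a median absolute log2 fold change of 1.38. Of them, 171 changed by at least 1 and 33 by at least 2 on the log2 scale, and 195 were protein coding. Their levels were mostly modest, with 56 under a mean of 5 CPM and 31 at 50 CPM or more. All 197 had groups that did not overlap, as did 44.9% of all genes. The last gene called had an adjusted p of 0.0478 and the first not called had 0.0537. Of the 197, 129 stayed called when each of the 6 libraries was left out in turn and 68 lost the call without at least 1 library.

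**Figure D1:**
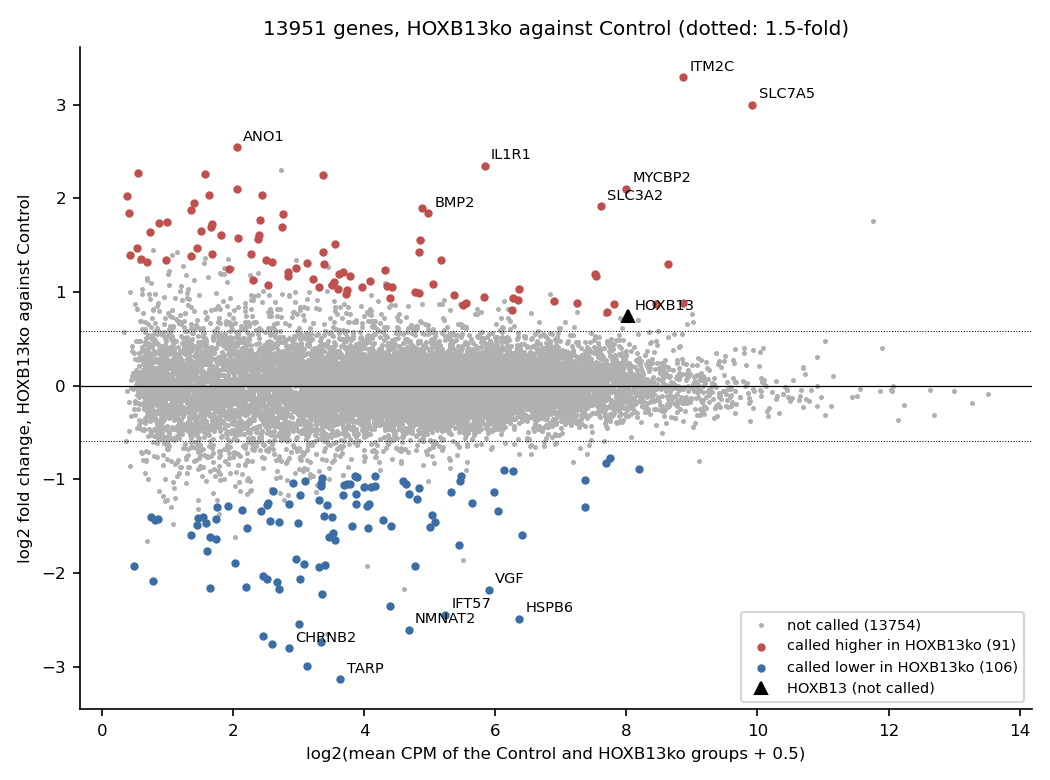
Each point is 1 of 13951 genes, with its mean level over the 6 libraries (log2 of CPM + 0.5) against the log2 fold change of HOXB13ko against Control. The 91 called higher and 106 called lower genes are colored, and most genes lie between the lines at 1.5-fold.

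The 2 groups also differed along GC content, and the following values apply to each list below. Genes whose mean was 5 CPM or more were sorted into 10 bins by the GC content of their transcripts, and the median log2 fold change went from 0.17 in the lowest bin (29.2 to 38.0% GC) to -0.25 in the highest (61.4 to 76.0%). Between the MEIS1 lines it went from 0.018 to -0.10. The median GC content was 46.2% for the genes called higher, 54.5% for those called lower and 48.0% for all. Removing the trend from each library, an alternative chosen after the data were seen, left 182 called genes, 91 in each direction, of which 160 were among the 197. The part of this trend in single results was tested only through that alternative, and a list median that changes sign with it is given with both values.

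Both chains of a leucine transporter were called higher, while most listed genes of amino acid supply were not called, though many were higher by eBayes. SLC7A5 (ENSG00000103257, chromosome 16, 87830023 to 87869507) encodes LAT1, which exchanges large neutral amino acids such as leucine across the plasma membrane, and SLC3A2 (chromosome 11, 62856004 to 62888880) encodes CD98, the heavy chain that carries LAT1 to the surface. SLC7A5 was 211, 236 and 199 CPM in Control and 1853, 1726 and 1599 CPM in HOXB13ko, and its partner SLC3A2 was 78.8, 87.3 and 78.7 CPM and 327, 307 and 294 CPM. Every HOXB13ko library lay above every Control library for both chains of the transporter. The log2 fold changes were 3.001 ± 0.08 (SE, treat adjusted p = 8.1e-11) for SLC7A5 and 1.92 ± 0.07 (treat adjusted p = 1.2e-08) for SLC3A2. BCAT1, which encodes the cytosolic aminotransferase of leucine, isoleucine and valine and was singled out after its values were seen, was 2.97, 1.04 and 2.58 CPM in Control and 7.18, 6.899 and 7.79 CPM in HOXB13ko (1.61 ± 0.23, treat adjusted p = 0.0198). Its call was lost without any 1 of the HOXB13ko libraries, and its log2 fold change lay between 1.25 and 1.84 over the 6 fits that left out a library.

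These were the 2 called genes among 25 listed amino acid transporters of 30. The list had a median of 0.20, with 17 members positive. By eBayes 10 members were higher and 2 lower, beside 16.5% and 16.4% of all genes. The summed level of the list went from 1869.9, 1783 and 1734 CPM to 4106, 3984 and 3852 CPM, of which SLC7A5 alone made most of the gain. SLC7A11, the light chain of the cystine transporter that pairs with the same CD98, was 63.7, 43.9 and 51.5 CPM in Control and 85.6, 92.4 and 100.0 CPM in HOXB13ko (0.81, eBayes adjusted p = 1.0e-04, treat adjusted p = 1). SLC1A1, which transports glutamate, had means of 16.9 and 27.7 CPM and was likewise not called. Within 218 solute carriers of all kinds, 5 rose and 1 fell. The others that rose were SLC22A3, an organic cation transporter (0.535 ± 0.176 to 4.41 ± 0.3499 CPM, SD, n = 3), SLC15A2, a peptide transporter (7.45 ± 1.21 to 15.7 ± 1.44 CPM), and SLC2A12, a hexose transporter (18.6 ± 2.38 to 37.3 ± 2.29 CPM). SLC17A7, which loads glutamate into synaptic vesicles, was the one that fell (17.1 ± 1.46 to 7.34 ± 0.275 CPM, -1.16). The calls for SLC15A2 and SLC2A12 were lost without replicate 2 or 3 of either group, at adjusted p-values up to 0.281 and 0.102, and with the GC trend removed (0.128 and 0.113).

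Genes of the ATF4 program, which is switched on by amino acid shortage and includes transporters, tRNA synthetases and serine synthesis, did not move by a called amount. The list held other targets than the transporters above, and none of 26 listed members of 27 was called. By eBayes 12 were higher and 2 lower, beside 16.5% and 16.4% of all genes, with a median log2 fold change of 0.16. CHAC1, which degrades glutathione, had the highest value (2.59 to 4.43 CPM, 0.72), and MTHFD2, a mitochondrial folate enzyme, had 0.40. None of 16 cytosolic tRNA synthetases was called (median 0.084), with 6 higher and 0 lower by eBayes. All 17 genes of the unfolded protein response list, which work in protein folding and degradation at the endoplasmic reticulum, were positive, with a median of 0.42. By eBayes 14 of them were higher and 0 lower, against the same shares of all genes, and 1 passed treat. That gene was SEL1L, a part of the complex that exports misfolded proteins for degradation, at 178, 146 and 151 CPM in Control and 279, 287 and 305 CPM in HOXB13ko (0.87 ± 0.07, treat adjusted p = 0.0266). Its call was lost without replicate 2 or 3 of either group (adjusted p up to 0.151) and with the GC trend removed (0.108). HERPUD1 (151 to 255 CPM) and DNAJC3 (152 to 259 CPM) had log2 fold changes of 0.76 and 0.76 with treat adjusted p-values of 0.139 and 0.138.

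The 250 bases before the start of SLC7A5, SLC3A2 and BCAT1 are shown because these called genes encode the transporter chains and the aminotransferase described above. They come from RefSeq on GRCh38.p14, read along each gene, with matches to TGATGNAA in capitals. TGATGNAA is the letters of the composite C/EBP and ATF element that ATF4 binds, searched on both strands. The SLC3A2 start that RefSeq uses lies inside the longer span given for the gene above.
SLC7A5, chr16:87869508-87869757, reverse strand: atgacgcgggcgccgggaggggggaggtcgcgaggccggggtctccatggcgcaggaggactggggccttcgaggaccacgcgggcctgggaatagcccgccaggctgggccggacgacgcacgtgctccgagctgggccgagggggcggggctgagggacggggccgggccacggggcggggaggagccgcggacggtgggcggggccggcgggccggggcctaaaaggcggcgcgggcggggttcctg
SLC3A2, chr11:62881449-62881698, forward strand: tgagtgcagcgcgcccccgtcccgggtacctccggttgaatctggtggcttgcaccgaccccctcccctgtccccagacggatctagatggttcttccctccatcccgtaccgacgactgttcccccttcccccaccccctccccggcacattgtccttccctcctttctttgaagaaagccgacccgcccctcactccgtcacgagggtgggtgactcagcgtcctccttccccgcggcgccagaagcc
BCAT1, chr12:24949102-24949351, reverse strand: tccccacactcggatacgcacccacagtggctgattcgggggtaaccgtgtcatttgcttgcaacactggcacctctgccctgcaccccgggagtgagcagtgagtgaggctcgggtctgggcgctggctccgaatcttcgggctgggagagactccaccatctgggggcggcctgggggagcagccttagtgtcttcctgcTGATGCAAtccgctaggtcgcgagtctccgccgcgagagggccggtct

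BCAT1 held 1 match before its start, SLC3A2 held 1 behind its start, and SLC7A5 held none in the window of 250 bases before to 50 after the start. Of 10991 listed genes with such a window (78.8%), 171 held the element (1.56%). Among the 152 called genes with a window it was found in 7, or 4.61% (95% Wilson interval 2.25 to 9.20%), 3 higher and 4 lower. The others were BRINP3 among the higher genes and CFC1, SEMA3C, SLC17A7 and SLITRK6 among the lower. A motif known for HOXB13, CCAATAAA, was found in 78 of all windows (0.710%), and its other known form, CTCGTAAA, in 8 (0.0728%). Neither occurred in the 152. AGAACA, one arm of the androgen and glucocorticoid response element, was in 980 windows (8.92%) and in 15 of the 152 (9.87%). Both strands were searched for each, and a match is only a run of letters in the window. No set test was run, and the interval is not a test of the 152 against all windows.

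**Figure D2:**
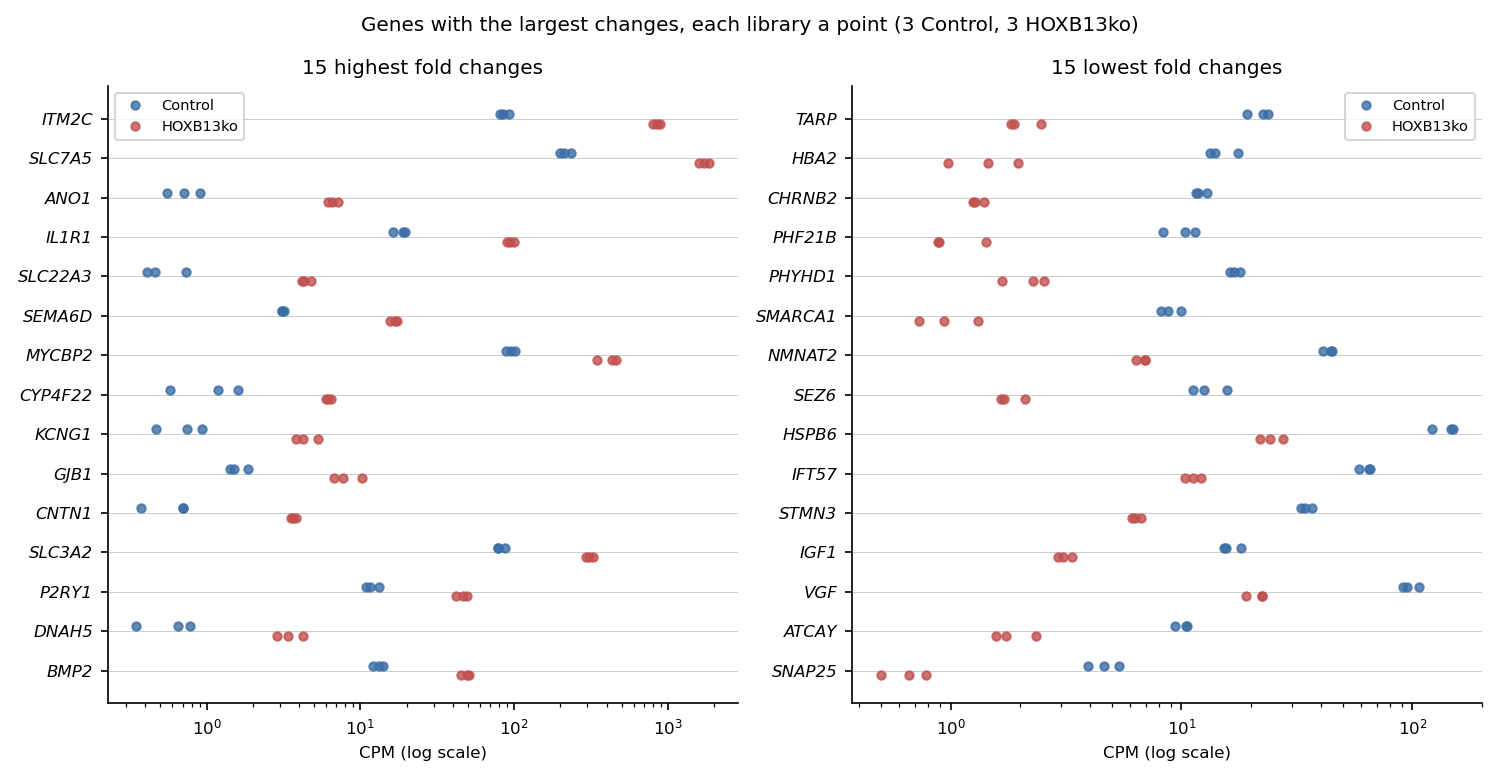
The 15 largest increases and 15 largest decreases among the called genes, named on the vertical axis, with the CPM of each Control and HOXB13ko library on a log axis. In each row the 3 HOXB13ko points lie on one side of the 3 Control points.

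Other genes that rose most were of mixed function. ITM2C, a small membrane protein that binds the amyloid precursor, was 84.1, 92.6 and 81.3 CPM in Control and 896, 846 and 799.8 CPM in HOXB13ko, an increase of 9.85-fold in the group means. It had the highest log2 fold change of all (3.29 ± 0.06). It was the only called gene of 15 in the amyloid and ITM2 list (median 0.025, or -0.034 with the GC trend removed), in which APLP1 and APLP2, the relatives of the amyloid precursor, had -0.57 and -0.22. The receptor gene IL1R1, through which interleukin-1 signals, was 19.4, 16.3 and 19.1 CPM in Control and 90.3, 93.9 and 101 CPM in HOXB13ko (2.35 ± 0.09, treat adjusted p = 1.2e-08). IL1R2, the decoy receptor for the same ligand, was named after its values were seen and was 0.756, 1.21 and 1.002 CPM and 5.09, 3.91 and 4.24 CPM (1.73 ± 0.17, treat adjusted p = 8.4e-04). Both receptors for interleukin-1 thus lay higher in each HOXB13ko library.

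P2RY1, a receptor for ADP, went from 11.9 ± 1.22 to 45.9 ± 3.94 CPM (SD, n = 3), a 3.85-fold rise of the means. GJB1, which encodes connexin 32 of gap junctions, went from 1.599 ± 0.229 to 8.204 ± 1.82 CPM. Among 84 ion channel genes, 2 rose and 2 fell, with a median of -0.065 that turned to 0.036 with the GC trend removed. ANO1, a calcium-activated chloride channel, rose from 0.724 ± 0.178 to 6.61 ± 0.484 CPM and KCNG1, a modifier of potassium channels, from 0.719 ± 0.236 to 4.48 ± 0.7801 CPM. The channels that fell were KCNT1 (8.96 ± 0.755 to 2.96 ± 0.339 CPM), which opens with sodium, and KCNH2 (23.7 ± 1.39 to 11.1 ± 0.747 CPM), the hERG channel.

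MYCBP2, a large ubiquitin ligase known from axons and synapses, was 102, 88.5 and 95.3 CPM in Control and 349, 432 and 458 CPM in HOXB13ko (2.102 ± 0.12, treat adjusted p = 1.0e-06). CYP4F22, which hydroxylates very long fatty acids for skin ceramides, rose from 1.13 ± 0.513 to 6.205 ± 0.209 CPM. DNAH5, a dynein of motile cilia, rose from 0.594 ± 0.221 to 3.51 ± 0.701 CPM. Among 47 genes of the SOX, FOX, GATA and KLF families (median -0.011, or 0.049 with the GC trend removed), SOX11, known from neural progenitors, was the 1 called, at 1.54, 1.73 and 2.56 CPM in Control and 7.897, 7.02 and 8.14 CPM in HOXB13ko. SOX2, a stem cell factor, was 1.105, 1.82 and 1.27 CPM and 4.15, 3.37 and 3.601 CPM and just missed treat (1.16 ± 0.15, adjusted p = 0.062). SPAM1 and BRINP3, named after their values were seen, were at or below 3 reads in all Control libraries. Against the value of 3 reads over the Control group, 0.140 CPM, they were at least 13.7-fold and at least 11.4-fold higher in HOXB13ko.

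Neuroendocrine genes were lower. Of 13 listed members of a list of 30, 7 fell and 0 rose, with a median log2 fold change of -1.33 (-1.25 with the GC trend removed). The 7 were VGF, SNAP25, CHGB, SCG3, SYP, SRRM4 and CELF3. VGF, a granule protein and peptide precursor, was 90.8, 107 and 94.8 CPM in Control and 22.3, 22.3 and 18.9 CPM in HOXB13ko, and synaptophysin, SYP, was 17.03, 17.02 and 14.4 CPM and 4.25, 3.86 and 3.68 CPM. For both, the highest HOXB13ko library was far below the lowest Control library, with log2 fold changes of -2.18 ± 0.12 (treat adjusted p = 1.0e-06) and -1.91 ± 0.15 (4.5e-05).

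The granule proteins chromogranin B and secretogranin III behaved alike, CHGB at 6.29, 6.93 and 7.58 CPM in Control and 1.29, 1.03 and 1.23 CPM in HOXB13ko, and SCG3 at 10.6, 9.63 and 9.18 CPM and 2.21, 1.62 and 1.96 CPM. SRRM4, a splicing factor that directs neural exons and is known from neuroendocrine prostate tumors, was 26.8, 27.4 and 29.3 CPM and 8.71, 11.4 and 9.92 CPM (-1.44 ± 0.16, treat adjusted p = 0.00521). CELF3, another neural splicing factor, was 6.11, 6.87 and 8.52 CPM and 2.05, 2.97 and 2.603 CPM, and its call was lost without Control replicate 2 or 3 or HOXB13ko replicate 1 or 3 (adjusted p up to 0.216) and with the GC trend removed (0.0899). The summed level of the list hardly moved, from 2187, 1987 and 1962 CPM to 1946, 1995 and 2051 CPM, since PEG10, a retrotransposon-derived gene that was not called, held most of it. CHGA, INSM1 and NCAM1, which also define neuroendocrine cells, were not listed, so the values describe these genes and not a cell type, and in bulk RNA fewer cells of a type and less RNA per cell cannot be told apart.

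Genes of the synapse split. Among 24 genes of synaptic vesicles and exocytosis, 4 fell, which were SNAP25, CPLX2, SYP and SYT5, and SV2A rose. SNAP25, a subunit of the fusion machine for vesicles, was 5.35, 4.63 and 3.93 CPM in Control and 0.498, 0.663 and 0.784 CPM in HOXB13ko, and CPLX2, which clamps that machine, was 8.08, 8.43 and 9.64 CPM and 1.77, 1.605 and 1.71 CPM. SV2A, a vesicle glycoprotein, lay the other way, at 104, 110.4 and 103 CPM and 201, 192 and 196 CPM (0.89 ± 0.04, treat adjusted p = 6.8e-04), and the list's median was 0.018. Of 28 nicotinic, GABA and glutamate receptor subunits, none rose and 2 fell. CHRNB2, a nicotinic subunit, was 12.9, 11.8 and 11.6 CPM in Control and 1.27, 1.396 and 1.25 CPM in HOXB13ko (-2.799 ± 0.22). GRIN1, the shared subunit of NMDA receptors, was 86.1, 93.2 and 91.7 CPM and 49.7, 49.6 and 45.4 CPM (-0.90 ± 0.07, treat adjusted p = 0.0318), and lost the call without any 1 library other than Control replicate 1 (adjusted p up to 0.174) and with the GC trend removed.

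**Figure D3:**
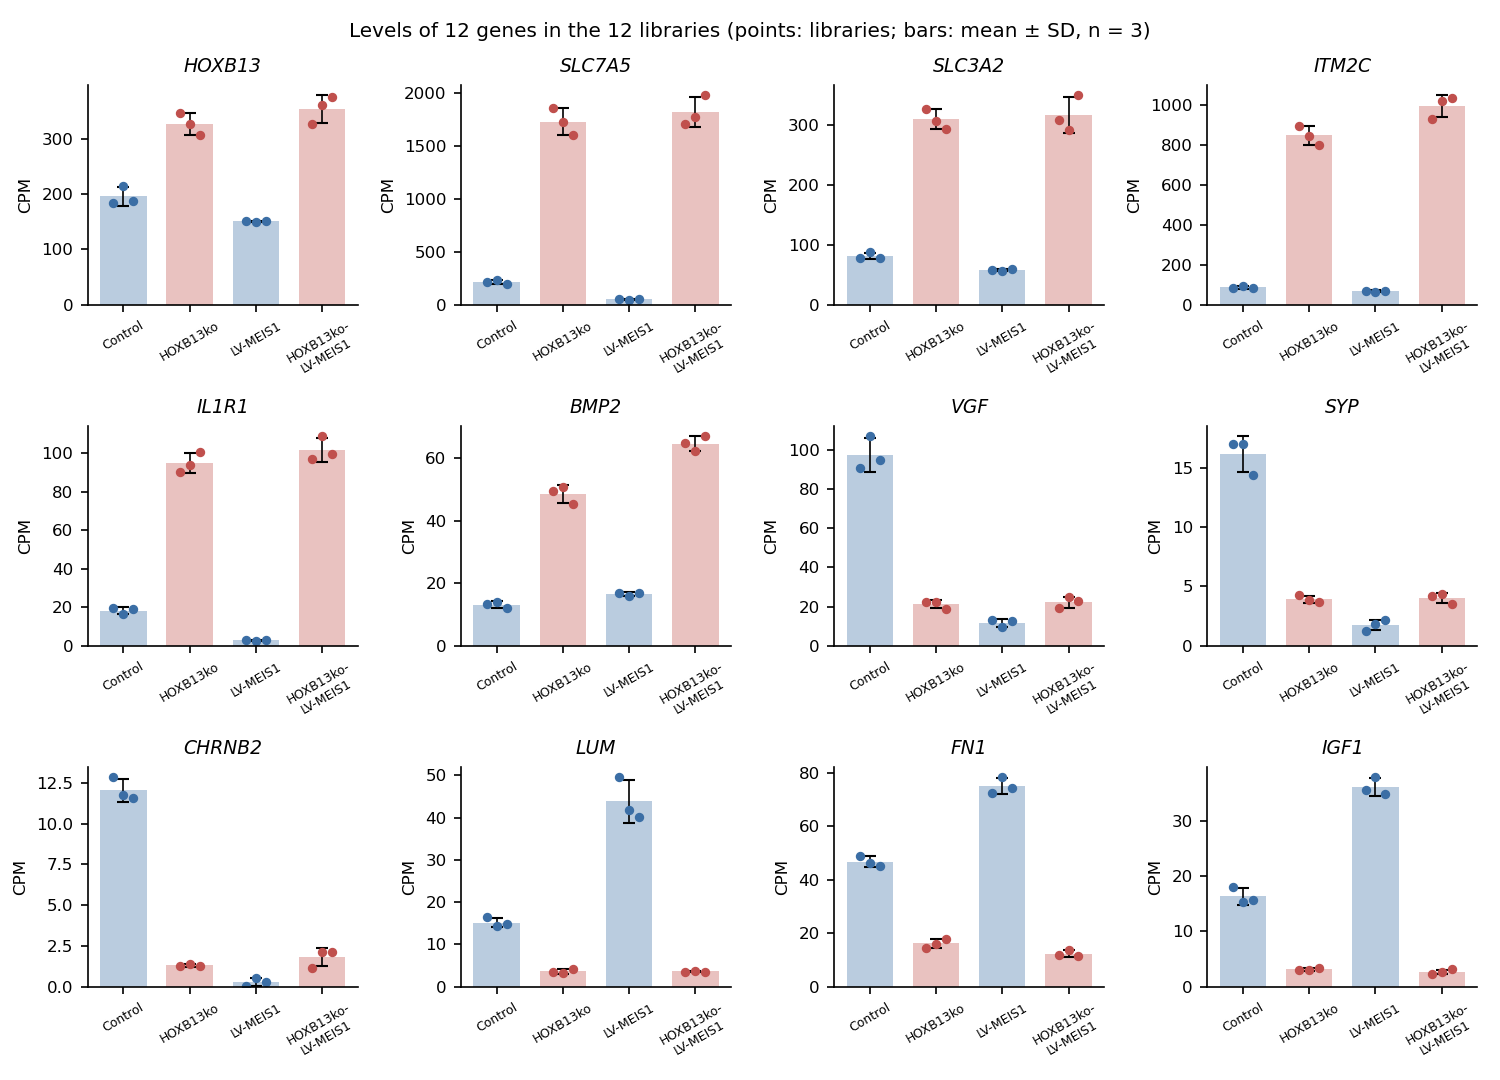
CPM of 12 genes in the 4 groups, with bars from 0 for the mean, error bars for the SD of 3 libraries and points for the libraries. VGF, SYP and CHRNB2 are highest in Control, and the HOXB13ko and HOXB13ko-LV-MEIS1 bars are close to each other for SLC7A5, SLC3A2 and IL1R1.

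Other genes with the largest decreases were of mixed function. NMNAT2, an enzyme of NAD synthesis that maintains axons, was 44.3, 44.96 and 41.1 CPM in Control and 6.34, 6.96 and 6.94 CPM in HOXB13ko (-2.602 ± 0.16, treat adjusted p = 1.0e-06), and was the 1 called gene of 12 in the NAD list. HSPB6, a small heat shock protein, was 122, 147 and 150.4 CPM and 27.5, 24.2 and 21.8 CPM (-2.49 ± 0.12, treat adjusted p = 1.6e-07). IFT57, a part of the transport system of cilia, was 58.8, 65.8 and 65.04 CPM and 10.3, 11.2 and 12.1 CPM (-2.44 ± 0.09, treat adjusted p = 1.2e-08). The Control means were 6.44, 5.699 and 5.63 times the HOXB13ko means, and no libraries of the groups overlapped.

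SMARCA1, a chromatin remodeler of the ISWI family, fell from 8.96 ± 0.943 to 0.997 ± 0.297 CPM (SD, n = 3). STMN3, a regulator of microtubules in neurons, fell from 34.6 ± 1.903 to 6.37 ± 0.301 CPM and ATCAY, a brain protein named for an ataxia, from 10.1 ± 0.6802 to 1.88 ± 0.406 CPM. PHF21B, a histone reader, fell from 10.02 ± 1.57 to 1.07 ± 0.313 CPM and PHYHD1, a dioxygenase, from 17.04 ± 0.898 to 2.16 ± 0.438 CPM. For 3 further genes among the 15 largest decreases the reads could be shared. TARP (21.8 ± 2.36 to 2.06 ± 0.357 CPM) lies in the T-cell receptor gamma locus, HBA2 (14.9 ± 2.26 to 1.46 ± 0.486 CPM) is nearly identical to HBA1, and SEZ6 (13.1 ± 2.33 to 1.82 ± 0.2401 CPM) overlaps PIPOX on the other strand, and strand was not used in counting. HBA2 was also 1 of only 2 listed genes of 14 in the leukocyte, endothelial and erythroid list.

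Matrix genes gave few calls in either direction. LUM, the collagen-binding proteoglycan lumican, was 16.4, 14.4 and 14.7 CPM in Control and 3.48, 3.18 and 4.21 CPM in HOXB13ko, and FN1, fibronectin, was 48.9, 46.1 and 45.1 CPM and 14.6, 16 and 17.96 CPM. Both were lower in all HOXB13ko libraries, with log2 fold changes of -1.93 ± 0.11 and -1.504 ± 0.08 (treat adjusted p = 1.6e-06 and 6.1e-06). They were the 2 called among 7 listed fibroblast genes of 13, a list with a median of -0.96 and a summed level of 106, 102 and 99.4 CPM in Control and 58.7, 58.4 and 62.8 CPM in HOXB13ko. By eBayes 2 of the 7 were higher and 4 lower, beside 16.5% and 16.4% of all genes, and the highest was ACTA2 (0.53). Of the defining fibroblast markers, 2 of 6 were listed and neither was called. COL1A1 lay higher in HOXB13ko, at means of 14.5 CPM in Control and 18.5 CPM in HOXB13ko (0.34, eBayes adjusted p = 0.0075), and PDGFRB had -0.089. The part of other cells in these values was not tested. Decorin, DCN, was 2.46, 2.99 and 1.83 CPM and 1.098, 0.947 and 0.899 CPM and did not pass treat (-0.96, adjusted p = 0.612).

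Of 23 listed proteoglycan core proteins, LUM and SMOC1 fell and none rose, with a median of -0.19. SMOC1, a matrix protein that binds calcium and opposes BMP signals, was 9.07, 7.92 and 7.37 CPM in Control and 2.599, 2.48 and 2.92 CPM in HOXB13ko (-1.44 ± 0.10). Versican, VCAN, was 5.08, 3.805 and 3.25 CPM and 6.86, 9.29 and 9.08 CPM and was not called (0.98, treat adjusted p = 0.511). COL5A2, a chain of fibrillar collagen V, was the 1 called gene among 26 collagens and laminins (46.95 ± 1.796 to 17.8 ± 0.9903 CPM, -1.38), whose median was -0.035 and 0.20 with the GC trend removed. None of 15 metalloproteases and inhibitors (median -0.022, or 0.14 with the GC trend removed) and none of 17 integrin subunits was called. Among these, MMP16, a membrane-bound metalloprotease, had means of 76.4 and 151 CPM and missed treat at an adjusted p of 0.107.

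Cell adhesion genes were called in both directions. Among 18 cadherins and regulators of the epithelial-mesenchymal change, CDH2, N-cadherin, rose from 5.96 ± 0.381 to 12.9 ± 1.48 CPM (1.05 ± 0.10, treat adjusted p = 0.0132) while FN1 and CDH6, K-cadherin, fell. CDH6 was 55.2, 45.2 and 46.1 CPM in Control and 16.4, 17.4 and 18.6 CPM in HOXB13ko. The CDH2 call was lost without Control replicate 2 or HOXB13ko replicate 2 or 3 (adjusted p up to 0.0909). VIM, the mesenchymal filament protein vimentin, was 14.6, 14.2 and 10.8 CPM and 6.69, 5.48 and 7.17 CPM and was not called (-0.97, treat adjusted p = 0.62).

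The clustered protocadherins, neural adhesion proteins encoded in 3 tandem arrays on chromosome 5, moved mostly one way. Of 50 listed, 45 were positive, 4 rose (PCDHA10, PCDHGA9, PCDHB8 and PCDHB16) and none fell, and the median was 0.45 (0.44 with the GC trend removed). Their summed level was 355, 348 and 334 CPM in the Control libraries and 517, 534 and 522 CPM in HOXB13ko. PCDHA10 was 14.2, 15.1 and 13.1 CPM and 36.7, 44.2 and 46.9 CPM (1.55 ± 0.08, treat adjusted p = 2.9e-06). Members of an array share exons or are close in sequence, so reads may be divided among them and single values are uncertain. The call for PCDHB8 was lost without Control replicate 3 (adjusted p = 0.0609), and that for PCDHB16 without replicate 2 or 3 of either group (up to 0.130).

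Along the genome the same region stood at one end. In windows of 15 neighbours along a chromosome, all at a mean of 5 CPM or more, 11069 in all, the highest median log2 fold change was 0.63, on chromosome 5 from 141150057 to 141512975, from PCDHB6 to PCDHGA10, with 15 of 15 genes positive. The lowest was -0.40, on chromosome 19 from 571277 to 1039068, from BSG to CNN2, with 0 of 15 positive. Only 220 windows, which overlap one another, had a median beyond 0.3 in size. Over whole chromosomes the medians ran from -0.15 on chromosome 19 to 0.13 on chromosome 13, and these chromosomes also differ in GC content, whose part was not tested.

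Contactins, teneurins and other genes of neurite adhesion held 1 call in each direction among 22, with a median of 0.076 that turned to -0.0051 with the GC trend removed. CNTN1, contactin 1, was 0.705, 0.699 and 0.372 CPM in Control and 3.56, 3.84 and 3.64 CPM in HOXB13ko (1.95 ± 0.13), and TENM2 was 20.1, 20.02 and 20.4 CPM and 7.798, 6.804 and 6.06 CPM (-1.49 ± 0.11). Of 57 axon guidance genes, 2 rose and 4 fell, and the median of -0.18 turned to 0.055 with the GC trend removed. SEMA6D, a transmembrane semaphorin, rose from 3.11 ± 0.0492 to 16.6 ± 0.878 CPM, and UNC5C, a netrin receptor, from 4.07 ± 0.323 to 10.4 ± 0.822 CPM. EPHA4, an ephrin receptor, fell from 12.8 ± 1.43 to 3.097 ± 0.672 CPM, and so did EFNB2 (31.6 ± 2.98 to 15.4 ± 0.143 CPM), SEMA3C (38.6 ± 4.69 to 16.4 ± 1.23 CPM) and PLXNA2 (18.7 ± 1.25 to 9.304 ± 0.131 CPM). The call for PLXNA2 was lost without Control replicate 1 or 2 or HOXB13ko replicate 2 (adjusted p up to 0.0692) and with the GC trend removed (0.0605).

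**Figure D4:**
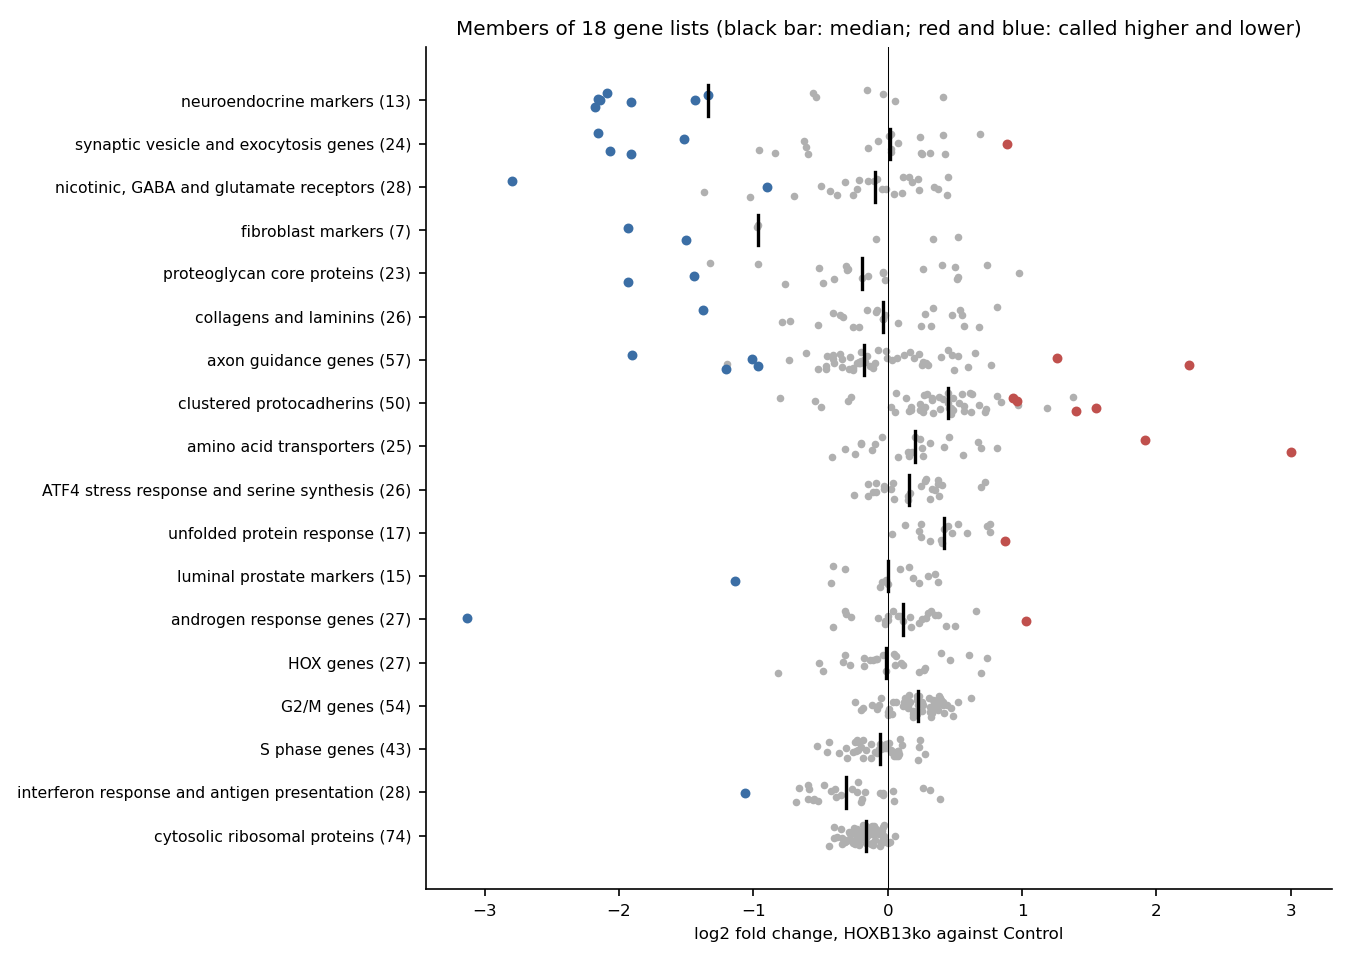
Log2 fold change of HOXB13ko against Control for each listed member of 18 gene lists, 1 point per gene, with called genes colored and a bar at each list's median. The neuroendocrine list has its median at -1.33 and the clustered protocadherins at 0.45, while S phase genes lie near 0.

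Androgen response genes, which androgens induce in luminal cells, were mostly not called. Of 27 listed of 31, 1 rose and 1 fell, 19 were positive and the median was 0.11. By eBayes 10 were higher and 5 lower, beside 16.5% and 16.4% of all genes. The 1 that rose was NDRG1, also known from the response to hypoxia, at 50.2, 56.4 and 54.5 CPM in Control and 115, 107 and 109 CPM in HOXB13ko (1.03 ± 0.08, treat adjusted p = 0.00359), and the 1 that fell was TARP. TMPRSS2, a serine protease gene that androgens induce, was 39.5, 46.1 and 43.1 CPM and 54.6, 57.2 and 55.4 CPM and was not called (0.37). In the list of steroid synthesis and glucuronidation, 14 of 27 were listed, and the median was 0.11 and -0.038 with the GC trend removed. Its 1 called gene was AKR1C3, which reduces androstenedione to testosterone, at 18.9, 21.3 and 19.1 CPM in Control and 51.5, 51.95 and 49.5 CPM in HOXB13ko (1.35 ± 0.07, treat adjusted p = 6.8e-06). UGT2B15, which inactivates androgens by glucuronidation, was 8.403, 4.72 and 7.11 CPM and 12.9, 14.3 and 16.2 CPM and did not pass treat (1.07, adjusted p = 0.606).

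In growth factor pathways the calls fell on single ligands, receptors and targets. BMP2, a ligand of bone morphogenetic protein receptors, was 13.3, 14.1 and 12.1 CPM in Control and 49.7, 50.8 and 45.2 CPM in HOXB13ko (1.84 ± 0.07), the 1 called gene of 42 in that family. INHBB, an activin subunit, was 28.8, 35.02 and 28.5 CPM and 56.2, 57.3 and 55.8 CPM and lay just outside the threshold (0.87, treat adjusted p = 0.0556), as did TGFB1 (-0.95, 0.0773). IGF1, insulin-like growth factor 1, was 18.1, 15.3 and 15.7 CPM in Control and 2.93, 3.07 and 3.34 CPM in HOXB13ko (-2.22 ± 0.11, treat adjusted p = 1.6e-07). It was the 1 called gene of 15 in the MET and IGF list.

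Of 34 Wnt pathway genes, the receptor FZD4 rose (12.7 ± 0.3804 to 27.02 ± 0.322 CPM) and 2 genes fell. DKK1, a secreted inhibitor of Wnt receptors and itself a known Wnt target, was 13.1, 13.3 and 11.6 CPM in Control and 2.54, 2.69 and 2.67 CPM in HOXB13ko. LEF1, a nuclear effector of the pathway, was 23.3, 22.8 and 23.3 CPM and 10.4, 8.44 and 9.45 CPM (-1.26 ± 0.09, treat adjusted p = 2.4e-04). Thus a receptor was higher while an inhibitor and an effector were lower, and the list's median was 0.047. In the Notch list of 21, HES7, a repressor that oscillates in the embryo, fell (22.8 ± 1.42 to 9.102 ± 1.05 CPM), with a median of -0.12. No gene of 9 listed ERBB receptors and ligands was called, with EGFR at 0.57 and ERBB2 at -0.46. PTCH1, a Hedgehog receptor and target named after its values were seen, rose from 114 ± 2.91 to 257 ± 7.81 CPM (1.18 ± 0.06, treat adjusted p = 1.1e-05).

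Proliferation genes differed by small amounts. None of 43 S phase genes was called, with 3 higher and 15 lower by eBayes and a median of -0.058. The same test placed 16.5% of all genes higher and 16.4% lower. None of 54 G2/M genes was called either, though most lay slightly higher. Of them, 47 were positive, and by eBayes 36 were higher and 3 lower, with a median of 0.22. ECT2, which drives cytokinesis, had the highest value among them (193 to 296 CPM, 0.62). Of 21 genes of G1 control, CDC25A, a phosphatase that activates CDKs, fell from 34.7 ± 1.88 to 15.3 ± 0.569 CPM (-1.15 ± 0.07, treat adjusted p = 1.5e-04). None of 24 p53 targets was called (median 0.17), and CDKN1A, which encodes the CDK inhibitor p21, had 0.54. The MYC, MAX and MXD family (12 listed, median 0.036) and the immediate early genes (12 listed, median 0.11) gave no call, with EGR1 at 0.88 (treat adjusted p = 0.115).

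Metabolic lists gave few calls. No gene of 25 in cholesterol synthesis (median 0.11) or of 19 in fatty acid synthesis (median 0.19) was called. By eBayes 12 and 9 of them were higher and 1 and 1 lower, beside 16.5% and 16.4% of all genes. INSIG1, which holds back the sterol response, was the highest of the former at 0.71. Of 26 genes of glycolysis and the hypoxia response, 2 rose and 1 fell. CA12, a carbonic anhydrase of the cell surface, rose with NDRG1, from 17.8 ± 0.512 to 36.2 ± 0.848 CPM (1.005 ± 0.06), and PFKP, a phosphofructokinase, fell from 16.1 ± 1.63 to 5.75 ± 0.324 CPM (-1.403 ± 0.10).

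Interferon and antigen presentation genes had a median of -0.31 over 28 listed of 38. By eBayes 1 was higher and 10 were lower, beside 16.5% and 16.4% of all genes. IFI44L, an interferon-induced gene, was the 1 called, at 13.5, 12.2 and 13.8 CPM in Control and 5.48, 6.07 and 6.56 CPM in HOXB13ko (-1.07 ± 0.10, treat adjusted p = 0.0124), and lost the call without Control replicate 3 (adjusted p = 0.0721) or HOXB13ko replicate 1 (0.0703). No gene of 74 cytosolic ribosomal proteins was called, 3 were positive and the median was -0.16. None of 469 ZNF zinc finger genes was called, 309 were positive, and their median of 0.10 was 0.031 with the GC trend removed. Of 10 genes in a wider basal list, 2 were listed and none was called.

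The same pair of labels was compared once more in the lines with exogenous MEIS1, HOXB13ko-LV-MEIS1 against LV-MEIS1. No library is shared with the first comparison, but HOXB13ko-LV-MEIS1 was made from the HOXB13ko pool, so the pairs are not independent. There, 936 genes were called (6.71%), 459 higher (3.29%) and 477 lower (3.42%). Of 11 listed TALE genes, 0 were called higher and 3 lower, with a median of -0.71. The level of MEIS1 in these 2 lines is not given here, so like amounts of it cannot be assumed. Of the 197 genes, 164 had the same sign (83.2%), 127 were called the same way (64.5% of the 197 and 13.6% of the 936), 16 were called the opposite way and 54 were not called. The share of all genes with the same sign is not given. Of the 91 genes higher in HOXB13ko, 62 were again called higher and 4 lower. Of the 106 lower genes, 65 were again called lower and 12 higher.

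**Figure D5:**
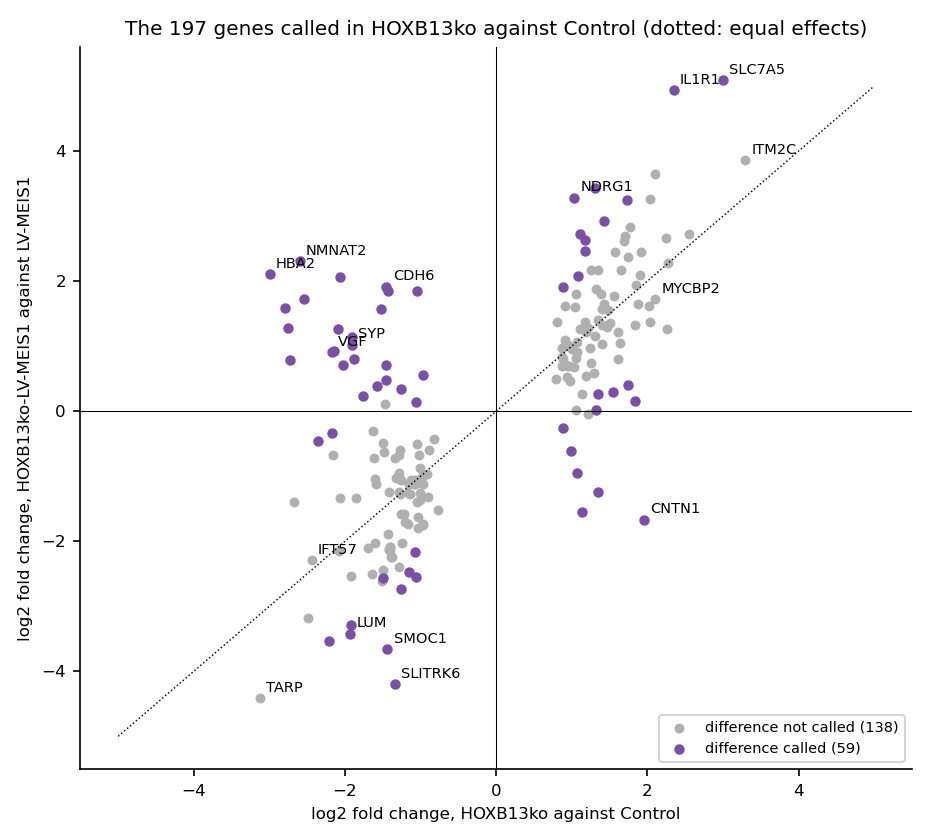
Log2 fold change of the 197 called genes in HOXB13ko against Control (horizontal) and in HOXB13ko-LV-MEIS1 against LV-MEIS1 (vertical), with the line of equal change. In 164 genes the signs match, and a set of genes lower on the horizontal axis lies above 0 on the vertical axis.

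Both lines labelled knockout had similar levels of these genes. Such closeness may be common, since 93.7% of all genes moved by less than 1.5-fold even between HOXB13ko and Control. Shares over all genes are not given for the pairs that follow, and the 197 were picked for a difference between HOXB13ko and Control. Between HOXB13ko-LV-MEIS1 and HOXB13ko, 194 of the 197 lay within 1.5-fold, with a median absolute log2 difference of 0.13, whereas LV-MEIS1 and Control lay within 1.5-fold for 86 of the 197, with a median of 0.70. SLC7A5 is an example, at 52.8 ± 4.64 CPM (SD, n = 3) in LV-MEIS1 and 1819 ± 143 CPM in HOXB13ko-LV-MEIS1, so that its log2 fold change was 5.09 ± 0.08 there against 3.001 ± 0.08 in the first comparison. IFT57 was 57.8 ± 3.55 and 11.4 ± 1.42 CPM in the MEIS1 lines, a log2 fold change of -2.296 ± 0.09 that lay near the -2.44 of the first comparison.

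The neuroendocrine list had a median of 0.90 in the MEIS1 lines, where 3 of 13 members were called higher and 0 lower. Of the untargeted lines, LV-MEIS1 was below Control for its called genes. VGF, not called in the MEIS1 lines (0.90, treat adjusted p = 0.138), was 13.2, 9.37 and 12.5 CPM in the LV-MEIS1 libraries and 19.1, 24.6 and 22.9 CPM in those of HOXB13ko-LV-MEIS1, and SRRM4 was 1.45, 2.02 and 2.84 CPM and 7.84, 9.43 and 8.71 CPM. SRRM4, called lower in the first comparison, was called higher in the second (1.84 ± 0.16, treat adjusted p = 2.5e-05). NMNAT2 was 0.592, 0.9102 and 1.303 CPM and 6.71, 5.42 and 7.41 CPM, again with the reverse order. The difference of both knockout effects, tested as an interaction, was called for 409 genes (2.93%), 226 positive and 183 negative, and for 59 of the 197 genes, of which 37 were among the 106 lower and 22 among the 91 higher. The 197 were picked by the first comparison, which enters the difference, so their share is not comparable with 2.93%. The difference was 4.91 ± 0.22 for NMNAT2 (treat adjusted p = 9.8e-09), 3.08 ± 0.17 for VGF (1.8e-07) and 3.28 ± 0.22 for SRRM4 (1.0e-06).

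For LUM, FN1 and IGF1 the second difference was larger in the same direction. LUM was 43.9 ± 5.04 CPM in LV-MEIS1 and 3.63 ± 0.127 CPM in HOXB13ko-LV-MEIS1, and IGF1 was 36.2 ± 1.59 and 2.68 ± 0.402 CPM. Their interaction values were -1.49 ± 0.15 (treat adjusted p = 0.00138) and -1.32 ± 0.15 (0.00667), and that of FN1 was -1.07 ± 0.12 (0.0252). SLITRK6, a neural membrane protein, was 94.3 ± 4.21 CPM in Control, 36.97 ± 2.31 in HOXB13ko, 631 ± 32.7 in LV-MEIS1 and 33.7 ± 1.005 in HOXB13ko-LV-MEIS1, and CNTN1, which rose in the first comparison, fell in the second (-1.67 ± 0.13, treat adjusted p = 1.9e-05). For both genes LV-MEIS1 had the highest mean of the 4 lines.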

How the data were processed

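Poly-A RNA of 12 cultures, 3 per line, was sequenced on Illumina as stranded libraries with single-end reads of 50 bp. The authors trimmed reads (Trimmomatic 0.38), pseudoaligned them with kallisto 0.43.1 against the Ensembl transcriptome of GRCh38.p12, summed them to genes, removed genes with few counts and normalised in edgeR 3.22.2, and the deposited values are CPM. Strand was not used, and reads shared by several transcripts were split between them, so overlapping genes and near-identical copies are uncertain. Each file listed 13993 rows, of which 42 exact repeats were dropped.

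Between 36.7% and 46.4% of values under 1 CPM in the 6 libraries lay within 0.02 of a whole multiple of the step of 1 read, so whole reads could not be rebuilt and no count test was run. limma 3.58.1 in R 4.3.3 was fitted to log2(CPM + 0.5) with 1 mean per group over 12 libraries, a trended prior, treat at 1.5-fold and Benjamini-Hochberg adjustment over 13951 genes. Contrasts were HOXB13ko against Control, HOXB13ko-LV-MEIS1 against LV-MEIS1 and their difference. On simulated data with 100 genes changed 4-fold and 100 changed 2-fold among 13951, the first contrast called 100% and 74% of them and 0 of 13751 unchanged genes. The changed genes were drawn from those at a mean of 5 CPM or more, and noise was normal on the log scale. Unchanged genes were given no difference at all, so the 0 says little about genes with a true change below 1.5-fold.

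Genes, the 47 lists and the rules were chosen with earlier results of these data known. A list was described by its calls and median, with no set test. Named genes were HOXB13, those within 500 kb of it, the 15 highest and 15 lowest called genes whose mean reached 1 CPM, with no overlap between groups, the called members of each list (filled to 4 with the largest changes that passed eBayes), and the called genes with the 6 highest and 6 lowest differences between contrasts. The 1 list of mitochondrial transcripts had no listed gene. Annotation was GENCODE on GRCh38, matched by symbol for 13659 genes (97.9%), 452 by an older symbol. Promoter windows were RefSeq's, and Wilson intervals cover counting error only. The guide was searched on GRCh38 with up to 3 mismatches.

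Other settings tried were a pseudocount of 0.1 or 1, genes at a mean of 1 CPM or more, a replicate block, 3 scalings, other thresholds and priors, a fit of the 6 libraries alone, each library left out, and, added after the data were seen, removal of a GC trend by loess. Same-numbered Control and HOXB13ko libraries did not deviate together (r of -0.171, 0.032 and -0.001 across genes), so replicate numbers were not taken as pairs. Plots used matplotlib 3.10.9 (Python 3.11.15).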

Additional observations from a re-analysis of the deposited data

Results flagged for a closer look

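Each of 48 named genes was set apart because the difference of its knockout effects, that is the log2 fold change of HOXB13ko-LV-MEIS1 against LV-MEIS1 minus that of HOXB13ko against Control, passed limma's treat test at 1.5-fold, with adjusted p-values of at most 0.0348. A positive value means that the log2 fold change was the higher (or less negative) one in the MEIS1 lines. The same test called 2.93% of all genes, and groups of 3 libraries were not searched for outlying samples. Naming drew on the first comparison, which enters the difference, and on the highest and lowest differences themselves. The number of flagged genes is therefore not comparable with that share.

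Among named genes called lower in HOXB13ko, positive differences were 3.08 for VGF, 3.06 for CHGB, 3.35 for SCG3, 2.93 for SYP, 3.28 for SRRM4, 4.13 for CPLX2, 4.39 for CHRNB2, 1.89 for STMN3, 1.84 for ATCAY and 4.27 for SEZ6. Means of CHRNB2 were 12.1 CPM in Control, 1.31 in HOXB13ko, 0.277 in LV-MEIS1 and 1.82 in HOXB13ko-LV-MEIS1. Positive too were 4.91 (NMNAT2), 5.10 (HBA2), 4.02 (PHF21B), 3.52 (PHYHD1), 3.37 (CDH6), 3.04 (EPHA4) and 2.17 (KCNT1). HES2, LAMC3, MMP24 and VIM, not called in HOXB13ko against Control, had 1.62, 1.30, 1.86 and 1.56.

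SLC7A5, IL1R1 and NDRG1, called higher in HOXB13ko, had larger log2 fold changes between the MEIS1 lines, with differences of 2.09, 2.59 and 2.26. LV-MEIS1 had lower means than Control, 52.8 against 215 CPM for SLC7A5 and 2.84 against 18.3 CPM for IL1R1. HOXB13ko-LV-MEIS1 and HOXB13ko were close, at 1819 and 1726 CPM for SLC7A5 and 102 and 94.9 CPM for IL1R1. NDRG1 had means of 53.7 CPM in Control, 110.1 in HOXB13ko, 12.8 in LV-MEIS1 and 129.8 in HOXB13ko-LV-MEIS1. INHBB, SLC1A1 and FADS2, a desaturase of fatty acids, not called in the first comparison, had 1.72, 1.04 and 0.96.

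Negative differences among named genes called lower, and for DCN and COL6A2, were -1.49 for LUM, -3.26 for DCN, -2.22 for SMOC1, -1.07 for FN1, -2.12 for COL6A2 and -1.32 for IGF1. Neither DCN nor COL6A2 was called between HOXB13ko and Control. DCN was 27.6 ± 1.003 CPM (SD, n = 3) in LV-MEIS1 and 1.01 ± 0.187 CPM in HOXB13ko-LV-MEIS1. Negative values, irrespective of the first call, were also found for SLITRK6 (-2.86), IFI44L (-1.48), IGF2BP1 (-1.20) and ERBB2 (-0.98).

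Of the genes called higher in HOXB13ko, 11 had a negative difference that passed the test, and for the 7 that the naming rule covers it was -3.62 for CNTN1, -2.69 for CA8, a carbonic anhydrase relative, -2.60 for CCDC170, -2.03 for TTC39B, -1.60 for SLC2A12, -1.26 for PCDHA10 and -1.08 for AKR1C3. CA8 had means of 2.59 CPM in Control, 6.24 in HOXB13ko, 17.7 in LV-MEIS1 and 5.77 in HOXB13ko-LV-MEIS1. Its call in HOXB13ko against Control, and those of CCDC170 and TTC39B, were lost without at least 1 library. UGT2B15, EGLN3, SOX2 and ZNF716, not called in that comparison, had -1.91, -1.97, -1.63 and -1.700.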

How the results depend on the processing

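Over 19 settings no named value changed direction for HOXB13ko against Control, while 91 values fell short of the threshold, 194 passed it where the reported fit did not, and 3477 kept their side. Of 197 called genes, 126 were called in every setting and none reversed. The test mattered most. Against no change, eBayes called 4590, 6993 and 4771 genes in HOXB13ko against Control, HOXB13ko-LV-MEIS1 against LV-MEIS1 and their difference, and 806, 2239 and 1858 when a fold change of 1.5 was asked for afterwards. At an adjusted p under 0.01 the difference was called for 272 genes. HOXB13 mRNA, at 0.74, passed both eBayes settings (adjusted p = 2.1e-06) and, at 0.88, the fit with the GC trend removed (9.35e-04), by limma.

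Leaving out 1 library gave 146 to 190 genes in HOXB13ko against Control, 837 to 881 in the MEIS1 lines and 333 to 392 for the difference, and 0.70 to 0.81 for HOXB13. The other settings gave 136 to 213 genes in the first comparison, including 182 with the GC trend removed. A replicate block, although the numbers do not pair the samples, gave 166, 895 and 356 genes. Under each scaling the median of all genes stayed within 0.055 of 0 in the 3 contrasts. Of 874 list medians, 796 moved by less than the spread and 78 by more. The cause of these changes was not tested. At these depths a gene under 0.174 CPM rests on 3 reads or fewer in the shallowest library. The 74% recovery of 2-fold changes in simulation, at genes of 5 CPM or more, limits what a missing call can say. Lower genes were not simulated as changed.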

Other observations

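The called genes given here lie outside the lists and were chosen after their values were seen, so they say nothing of their families. S100A10, an S100 calcium-binding protein, was 59.1, 68.8 and 70.4 CPM in Control and 19.9, 19.5 and 20.6 CPM in HOXB13ko, S100A6 was 19.8 ± 2.87 and 8.56 ± 0.117 CPM (SD, n = 3), and S100A11 was 99.8 ± 7.28 and 52.8 ± 2.86 CPM. LGALS1, galectin 1, was 38.5 ± 4.88 and 17.8 ± 1.47 CPM, and LGALS3BP, a glycoprotein that binds galectin 3, was 5.74 ± 0.873 and 1.99 ± 0.315 CPM. Secreted proteins of the same direction were midkine, MDK (219.8 ± 22.7 to 109 ± 7.24 CPM), and clusterin, CLU (379 ± 21.6 to 204 ± 15.3 CPM). The calls of S100A11, LGALS1 and CLU were lost without replicate 2 or 3 of either group, and their log2 fold changes lay between -0.97 and -0.87, -1.17 and -0.99, and -0.95 and -0.85 over the 6 fits that left out a library. That of LGALS1 was also lost with the GC trend removed.

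MAOA, the mitochondrial monoamine oxidase, was 44.5, 42.98 and 40.6 CPM in Control and 10.6, 10.4 and 11.6 CPM in HOXB13ko (-1.93 ± 0.07, limma treat adjusted p = 1.2e-08), and 103 ± 1.25 and 10.2 ± 0.762 CPM in LV-MEIS1 and HOXB13ko-LV-MEIS1. NEDD4L, a ubiquitin ligase that removes sodium channels from the membrane, was 133, 124 and 126 CPM and 38.9, 43.3 and 43.3 CPM (-1.598 ± 0.06), and CBLN2, a secreted organizer of synapses, was 238, 236 and 231 CPM and 92.2, 96.7 and 98.2 CPM (-1.29 ± 0.05). All 3 were called lower in the MEIS1 lines too.

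Higher genes included enzymes and secreted proteins. GUCY1A2, a subunit of soluble guanylate cyclase, was 231 ± 45.4 and 566 ± 70.1 CPM, MCCC2, which works in the breakdown of leucine, was 329 ± 2.27 and 607 ± 11.1 CPM, and THBS1, thrombospondin 1, was 15.04 ± 1.78 and 41.2 ± 0.678 CPM. The MCCC2 call was lost with the GC trend removed. RELN, the secreted guide of migrating neurons, was 3.55, 2.77 and 1.81 CPM and 8.68, 10.01 and 10.3 CPM (1.698 ± 0.21, limma treat adjusted p = 0.00615), and CYP7B1, which hydroxylates oxysterols and steroids, was 0.349, 0.346 and 0.308 CPM and 2.16, 2.16 and 2.57 CPM (1.74 ± 0.16, 3.2e-04).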
